A study of Mus musculus with 9 samples.

Results

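DNA methylation in mammals is written by a small set of proteins, and the expression of 8 genes for them was followed here through the reprogramming of mouse fibroblasts. They were Dnmt1, Uhrf1 and Hells, which keep existing methylation through cell division, Dnmt3a, Dnmt3b and Dnmt3l, which place new methylation, and Zfp57 and Trim28, which hold methylation at imprinted regions. The genes were chosen by name for this role, with earlier results of these data already known. Each was read by 1 array row that carries its symbol alone, so 8 of 8 genes were found among 19937 named genes. A row does not separate the splice forms of a gene.

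The series holds 9 arrays in 3 groups of 3. All cells had the OG2-GFP/Rosa26-M2rtTA background, an Oct4 reporter together with the reverse tetracycline transactivator expressed from Rosa26. The fibroblasts came from mice made with TSKM iPS cells, whose doxycycline-inducible factors are Tet1, Sox2, Klf4 and c-Myc, and were taken at passage 4. The TSKM-3D arrays are of such fibroblasts at passage 4 given doxycycline for 3 days in ES medium, which replaced the feeder medium, so the drug and the medium changed together. The iPS arrays are of 1 line obtained with the same 4 factors, at passages 10 to 15, grown with LIF on mitomycin C-treated embryonic fibroblasts that were depleted by plating for 0.5 h. No label says that the 3 arrays of a group were separate cultures, so each p-value is set by how far these arrays differ among themselves, and that may be technical variation.

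The labelled cell types were checked against their markers. The mean log2 value of 9 pluripotent markers was 5.18 to 5.28 on fibroblast arrays, 5.39 to 5.76 on TSKM-3D arrays and 11.25 to 11.31 on iPS arrays, and that of 10 fibroblast markers was 11.32 to 11.39, 9.40 to 9.48 and 8.44 to 8.62. That of 11 macrophage markers was 6.80 to 6.96, 5.55 to 5.76 and 5.95 to 6.01. Of these 11, 4 were at least 2-fold lower than in fibroblasts on TSKM-3D arrays, as were 7.58% of all genes. There the introduced factors Myc and Sox2 were higher than in fibroblasts by 1.60 and 1.39, Klf4 differed by 0.04, and Tet1 fell by 1.13 (a difference of -0.997 after quantile normalization, inside the 2-fold line), which goes against the induction named in the labels. For the third fibroblast array 1 of its labels names induced cells, while its title and source name fibroblasts. It was kept with the fibroblasts, and the results without it are given in the closing section. In whole cultures, fewer cells of a type and less RNA per cell cannot be told apart.

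As background, DNMT1 copies methylation onto the new strand after replication and is brought there by UHRF1, which binds hemimethylated CpG sites. HELLS, a chromatin remodeller also known as LSH, opens packed nucleosomes to methylation. DNMT3A and DNMT3B methylate unmarked DNA, and DNMT3L has no activity of its own but stimulates both. ZFP57 binds a methylated motif at imprinting control regions and recruits the corepressor TRIM28, also known as KAP1, with histone and DNA methyltransferases. Pluripotent cells are known for strong de novo methylation activity and for Dnmt3l expression, which most somatic cells lack.

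On the iPS arrays all 8 genes stood above both other groups, with no overlap between arrays. Separation of the groups in either direction, higher or lower, held for 49.5% of all genes against TSKM-3D cells and 65% against fibroblasts. A gene was called when its limma Benjamini-Hochberg adjusted p over 19937 genes was under 0.05 and its change at least 2-fold. By this rule 7 of the 8 genes were higher in iPS cells than in fibroblasts, where 7.63% of all genes were higher, 13.8% lower and 21.5% called either way. Dnmt1 was the exception. Against TSKM-3D cells 6 of 8 were higher in iPS cells, where 6.48% of all genes were higher, 8.57% lower and 15.1% called either way. Without the 2-fold requirement all 8 passed in both iPS comparisons, as did 45.6% and 54.6% of all genes. Between fibroblasts and TSKM-3D cells 1 of 8, Zfp57, was lower and 0 were higher, where 7.58% of all genes were lower, 3.25% higher and 10.8% called either way. Without the 2-fold requirement 5 of 8 were higher and 2 lower at this first step, where 44.6% of all genes passed (19.2% higher, 25.3% lower) and 53.1% had no overlap between groups, so that count of 7 says little about these genes. The median log2 difference of the 8 genes was 0.38 for TSKM-3D against fibroblasts, 2.23 for iPS against TSKM-3D and 2.25 for iPS against fibroblasts, and over all genes it was 0.05, -0.01 and 0.05.

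**Figure D1:**
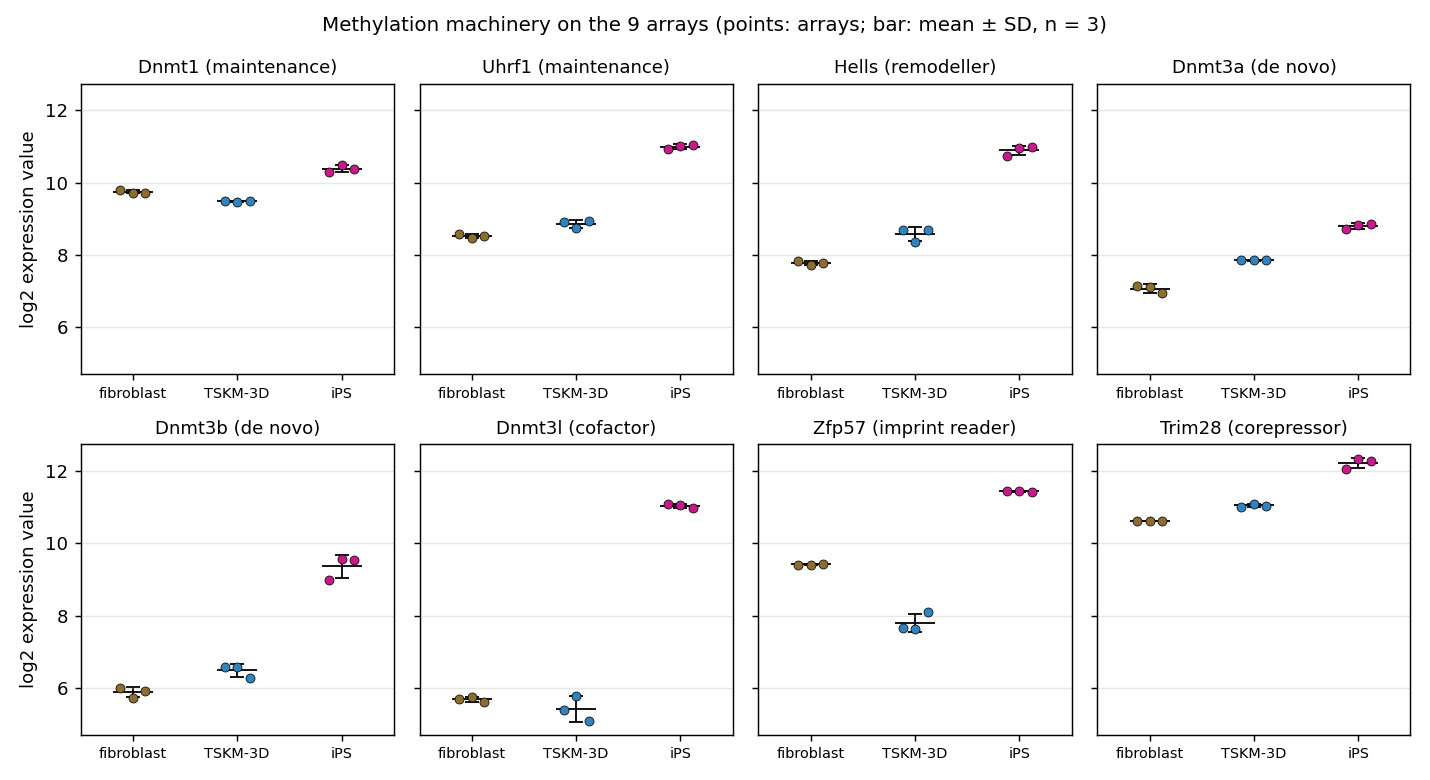
Log2 expression value of each of the 8 genes on the 9 arrays, by group, with each point 1 array and bars giving mean ± SD (n = 3). Every iPS point lies above every fibroblast and TSKM-3D point of the same gene, and Zfp57 is lower on the TSKM-3D arrays (7.63 to 8.09) than on the fibroblast arrays (9.41 to 9.42).

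TSKM-3D against fibroblast is called the first step, iPS against TSKM-3D the second step and iPS against fibroblast the whole course, although each compares separate cultures and not the same cells over time. The timing of each change was tested with the change from TSKM-3D to iPS minus the change from fibroblast to TSKM-3D. This difference between steps was above 2-fold and called for 6 of 8 genes, where it was called in that direction for 12.9% of all genes, in the other for 9.91% and either way for 22.8%. By the adjusted p alone 7 of 8 passed, against 42.7% of all genes. Dnmt3a and Trim28 were the genes not called. Of these, Trim28 passed by the limma adjusted p alone (0.00135) and Dnmt3a did not (0.416). Both steps share the TSKM-3D arrays, so a low reading there raises this difference.

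Among the maintenance genes, Dnmt1 changed least. It read 9.79, 9.72 and 9.73 on the fibroblast arrays, 9.49, 9.47 and 9.49 on the TSKM-3D arrays and 10.30, 10.48 and 10.38 on the iPS arrays. The 3 groups did not overlap, with the TSKM-3D arrays lowest. The log2 difference was -0.26 ± 0.07 (SE, n = 3 arrays per group) for TSKM-3D against fibroblasts (limma, Benjamini-Hochberg adjusted p = 0.0129), 0.90 ± 0.07 for iPS against TSKM-3D (adjusted p = 8.41e-07) and 0.64 ± 0.07 for iPS against fibroblasts (adjusted p = 1.13e-05). The first of these was -0.12 after quantile normalization and no longer passed (adjusted p = 0.219), nor did it pass without fibroblast array 1 (-0.24, adjusted p = 0.0525). None of the 3 reached 2-fold, the largest being 1.87-fold. The second step exceeded the first by 1.16 ± 0.13 (limma adjusted p = 1.54e-05), a call that was lost when the test was run against 2-fold (adjusted p = 0.644).

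Uhrf1 rose late. Its values were 8.58, 8.47 and 8.52 in fibroblasts, 8.91, 8.73 and 8.93 in TSKM-3D cells and 10.92, 11.01 and 11.05 in iPS cells. The TSKM-3D arrays lay just above the fibroblast arrays and far below the iPS arrays. The first step was 0.33 ± 0.08 (limma adjusted p = 0.00539), a 1.26-fold difference under the line, and the second was 2.14 ± 0.08, or 4.40-fold (adjusted p = 1.47e-09). Of its whole rise from fibroblast to iPS, 13.4% had been reached on the TSKM-3D arrays, and the second step exceeded the first by 1.81 ± 0.14 (limma adjusted p = 9.2e-07).

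Hells made a larger part of its rise early. The fibroblast arrays read 7.83, 7.71 and 7.79, the TSKM-3D arrays 8.68, 8.36 and 8.69, and the iPS arrays 10.74, 10.95 and 10.98. The second TSKM-3D array was the lowest of its group but still above every fibroblast array. The first step was 0.80 ± 0.11, or 1.74-fold (limma adjusted p = 6.1e-05), and the second 2.32 ± 0.11, or 4.98-fold (adjusted p = 6.18e-09). Over the whole course Hells was 8.67-fold higher (3.12 ± 0.11; adjusted p = 3.59e-10). The second step exceeded the first by 1.52 ± 0.18 (adjusted p = 3.23e-05), which did not pass when tested against 2-fold (adjusted p = 0.0633).

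The start regions shown here are those of Uhrf1 and Hells, the maintenance genes called higher at the second step. Most of the listed replication genes rose there too, and many replication genes are known targets of E2F factors. RefSeq windows (GRCm38.p6) of 300 bases, 250 before and 50 after an annotated start, were found for all 8 genes, 17 windows in all, and for each gene shown the window with the most CG pairs was taken. The windows are chr17:56304063-56304362 on the plus strand for Uhrf1 and chr19:38930740-38931039 on the plus strand for Hells. Capitals mark a match to 1 of 4 E2F-like words, TTTCCCGC, TTTCGCGC, TTTGCCGC or TTTGGCGC, searched on both strands, some of which can overlap.
Uhrf1: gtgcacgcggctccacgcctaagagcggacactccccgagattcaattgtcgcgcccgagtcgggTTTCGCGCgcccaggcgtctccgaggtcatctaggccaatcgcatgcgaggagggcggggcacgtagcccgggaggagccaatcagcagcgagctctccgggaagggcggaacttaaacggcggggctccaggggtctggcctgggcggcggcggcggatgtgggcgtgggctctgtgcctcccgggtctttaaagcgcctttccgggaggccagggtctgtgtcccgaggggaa
Hells: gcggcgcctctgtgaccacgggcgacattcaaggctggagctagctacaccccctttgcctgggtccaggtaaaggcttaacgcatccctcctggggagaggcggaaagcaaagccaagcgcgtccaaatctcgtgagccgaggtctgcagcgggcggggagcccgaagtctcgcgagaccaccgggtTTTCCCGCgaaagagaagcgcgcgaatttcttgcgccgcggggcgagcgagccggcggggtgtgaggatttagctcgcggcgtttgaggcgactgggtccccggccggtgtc
Counted from the annotated start, the match begins at position -185 in the Uhrf1 window and at -62 in the Hells window. Of the 17 windows of the 8 genes 3 held a match, the third being a window of Dnmt1, which was not called at the second step. No window of Dnmt3b, Dnmt3l, Zfp57 or Trim28, which were called higher there, held a match. Of all 32851 windows 2.3% held one, and of the 3837 windows with at least 30 CG pairs 5.1% did. A match is a description of the letters and not of binding.

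Replication genes were set beside these 3. At the first step 0 of 23 measured S phase and replication genes were higher and 4 lower, against 3.25% and 7.58% of all genes. At the second 20 were higher and 0 lower, against 6.48% and 8.57% of all genes. Over the whole course 15 were higher and 1 lower, against 7.63% and 13.8% of all genes. The medians were -0.38, 1.48 and 1.20. At the first step the transcription factor genes E2f8 and E2f1, the cyclin gene Ccne2 and the chromatin assembly gene Chaf1b fell, by 1.87, 1.34, 1.36 and 1.06 (limma adjusted p at most 0.000518). Without the 2-fold requirement 5 of the 23 were higher and 16 lower there (limma adjusted p under 0.05), where 19.2% and 25.3% of all genes were. Mcm3 read 8.57 to 8.77 on fibroblast arrays and 9.03 to 9.09 on TSKM-3D arrays. Over the same arrays Uhrf1 and Hells were above the fibroblast level by 0.33 and 0.80, as part of the list was. The list median lay on the other side of 0, as did Dnmt1 at -0.26. At the second step the licensing gene Cdt1 rose by 2.47, Chaf1b by 2.37, the helicase gene Mcm5 by 2.32 and the licensing gene Cdc6 by 2.22, against 2.14 for Uhrf1 and 2.32 for Hells. Whether the share of cells in S phase differed between the cultures was not tested.

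**Figure D2:**
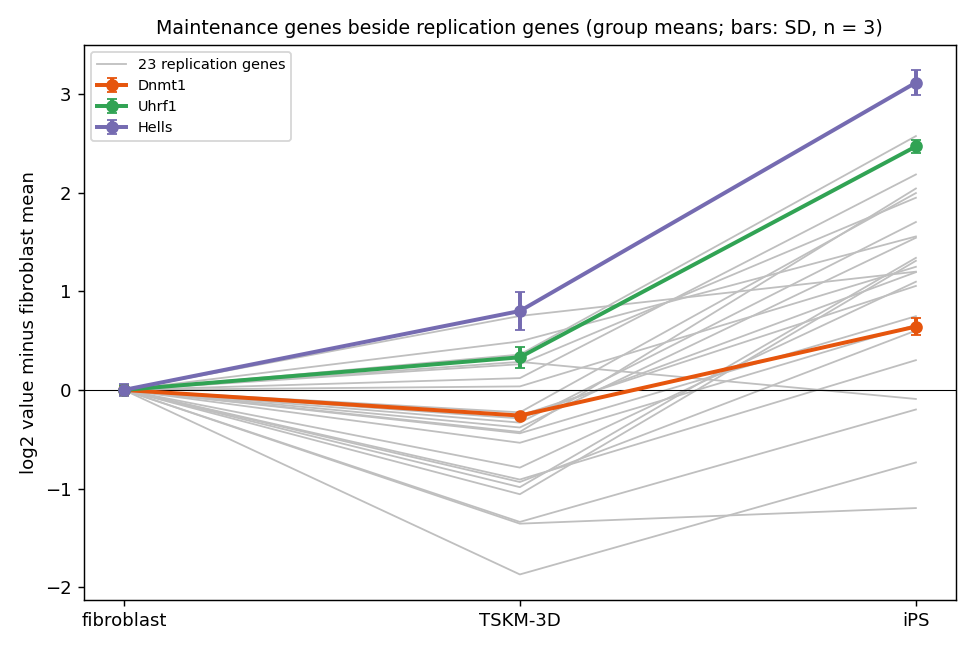
Group means of log2 value minus the gene's fibroblast mean, for Dnmt1, Uhrf1 and Hells (bars: SD, n = 3 arrays) and for 23 replication genes in grey. Hells and Uhrf1 lie above 0 in TSKM-3D cells, at 0.80 and 0.33, where Dnmt1 and most of the replication genes lie below it, and all 3 are above 0 in iPS cells.

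Likeness of profile was measured as the root mean square difference between log2 profiles over the 9 arrays, each centred on its own mean. Such a value mostly reflects the 3 group means and is a description. The gene nearest to Uhrf1 was the helicase gene Mcm3 (0.08, Pearson r = 0.998), followed by the dioxygenase gene Tet2 and by Set. Nearest to Hells were Dyrk3 (0.13), the mismatch repair gene Msh6 (0.14) and Alg13, and nearest to Dnmt1 were Ubqln4 (0.05), Nup188 and Rtkn2.

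The de novo enzymes differed in timing. Dnmt3a read 7.15, 7.12 and 6.94 in fibroblasts, 7.85, 7.87 and 7.85 in TSKM-3D cells and 8.72, 8.82 and 8.86 in iPS cells. The groups formed 3 separate levels of nearly even spacing. The first step was 0.79 ± 0.08, or 1.73-fold (limma adjusted p = 8.16e-06), and the second 0.94 ± 0.08, or 1.92-fold (adjusted p = 1.28e-06). Neither reached 2-fold alone, and together they made 3.32-fold (1.73 ± 0.08; adjusted p = 4.41e-09). The steps differed by 0.16 with a 95% interval of -0.15 to 0.46 (limma adjusted p = 0.416), and 45.5% of the rise was in place on the TSKM-3D arrays. The values on TSKM-3D arrays 1 and 3 are identical to the last digit, so the spread of that group may be understated.

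Dnmt3b rose 11.2-fold over the whole course. Its fibroblast values were 6.001, 5.727 and 5.916, its TSKM-3D values 6.591, 6.572 and 6.285, and its iPS values 8.996, 9.559 and 9.528. The first iPS array was the lowest of its group and the SD there was 0.32, the widest of the 8 genes on iPS arrays. The first step was 0.60 ± 0.15 (limma adjusted p = 0.00608) and the second 2.88 ± 0.15, or 7.35-fold (adjusted p = 1.84e-08). The fibroblast readings lay below the array medians of 6.04 to 6.05, and the fold is less certain than its direction. The second step exceeded the first by 2.28 ± 0.26 (limma adjusted p = 2.06e-05).

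Dnmt3l made the largest change of the 8 genes. It read 5.69, 5.74 and 5.61 in fibroblasts and 5.38, 5.78 and 5.08 in TSKM-3D cells, and then 11.09, 11.06 and 10.97 in iPS cells. The first 2 groups overlapped and were dim, while the iPS arrays stood far above both. For TSKM-3D against fibroblasts the difference was -0.27 with a 95% interval of -0.58 to 0.04 (limma adjusted p = 0.153), and it was -0.45 without TSKM-3D array 2 (adjusted p = 0.00299) and -0.10 without array 3 (adjusted p = 0.482). Against TSKM-3D cells it rose by 5.62 ± 0.14, or 49.3-fold (adjusted p = 8.21e-11), the 14th highest difference of 19937 genes, and against fibroblasts by 5.36 ± 0.14, or 41.0-fold. The difference between steps, 5.89 ± 0.25, was the largest of the 8 (limma adjusted p = 8.02e-09). With such dim readings in the lower groups, the folds are less certain than their direction.

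The genes most like each of the 3 in profile were not the same. Nearest to Dnmt3l was Esrrb, a pluripotency transcription factor gene (root mean square difference 0.14, Pearson r = 0.999 over 9 arrays), then Obox6 and AU018091. Nearest to Dnmt3b were Trim71 (0.11), a known stem cell regulator, Fmr1nb and Gpa33, and nearest to Dnmt3a were Zc3hc1 (0.07), Grwd1 and Akap1.

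The start regions of Dnmt3b and Dnmt3l are shown with those of Zfp57 because these 3 had the largest second steps and differ in CG content, the pair that these enzymes methylate. Capitals mark each CG. The windows are chr2:153649199-153649498 (Dnmt3b), chr10:78042037-78042336 (Dnmt3l) and chr17:37002275-37002574 (Zfp57), all on the plus strand of GRCm38.p6.
Dnmt3b: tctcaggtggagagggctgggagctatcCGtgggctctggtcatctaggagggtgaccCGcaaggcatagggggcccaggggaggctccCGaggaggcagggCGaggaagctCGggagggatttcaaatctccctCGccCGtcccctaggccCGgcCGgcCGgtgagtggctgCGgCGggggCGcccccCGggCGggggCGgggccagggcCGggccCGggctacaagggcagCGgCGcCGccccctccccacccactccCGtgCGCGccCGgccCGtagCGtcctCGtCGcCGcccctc
Dnmt3l: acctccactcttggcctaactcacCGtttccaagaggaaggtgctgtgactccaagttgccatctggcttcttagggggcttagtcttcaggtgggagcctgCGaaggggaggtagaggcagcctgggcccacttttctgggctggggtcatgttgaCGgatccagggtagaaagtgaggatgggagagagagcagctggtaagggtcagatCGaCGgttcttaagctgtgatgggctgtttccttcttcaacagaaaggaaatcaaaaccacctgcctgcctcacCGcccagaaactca
Zfp57: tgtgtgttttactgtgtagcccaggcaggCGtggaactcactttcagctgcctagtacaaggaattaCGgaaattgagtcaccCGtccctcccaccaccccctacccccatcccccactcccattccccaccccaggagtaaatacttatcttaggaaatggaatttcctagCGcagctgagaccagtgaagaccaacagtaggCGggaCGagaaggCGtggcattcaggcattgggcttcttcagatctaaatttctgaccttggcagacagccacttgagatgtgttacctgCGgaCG
The Dnmt3b window held 30 CG pairs, more than or as many as 89.4% of the 32851 windows. The window shown for Dnmt3l held 6 and its other windows 4 and 3, and that for Zfp57 held 9 and its others 6 and 4, where the median window held 7. Windows of Dnmt3a held up to 47, of Hells 34, of Uhrf1 and Dnmt1 up to 33, and of Trim28 23. Methylation itself was not measured in this series.

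Zfp57 was the only gene of the 8 called at the first step, and it fell there. The fibroblast arrays read 9.41, 9.41 and 9.42, the TSKM-3D arrays 7.66, 7.63 and 8.09, and the iPS arrays 11.45, 11.45 and 11.43. All 3 groups were apart, with the third TSKM-3D array the highest of its group. In log2 units Zfp57 fell by 1.62 (SE 0.11), to 3.08-fold below the fibroblast level (limma adjusted p = 2.92e-07). It then rose by 3.65 ± 0.11, or 12.6-fold (adjusted p = 3.1e-10), to end 4.08-fold above fibroblasts (2.03 ± 0.11; adjusted p = 1.67e-08). The difference between steps was 5.27 ± 0.19 (adjusted p = 3.06e-09). The values on fibroblast arrays 1 and 2 are identical to the last digit, so the spread there may be understated.

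Placing the third fibroblast array with the TSKM-3D arrays, as 1 of its labels reads, ended the Zfp57 call at the first step (-1.21, limma adjusted p = 0.165). That array read 9.42 for Zfp57, within 0.01 of the other fibroblast arrays. Nearest to Zfp57 in profile were Cth, a gene of cysteine synthesis (root mean square difference 0.18, Pearson r = 0.997), Tet1 (0.26) and Igfbp2 (0.29). Cth and Tet1 were lower on the TSKM-3D arrays as well, with differences of -1.63 and -1.13.

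Trim28 rose in moderate steps from a bright start. It read 10.62, 10.61 and 10.61 in fibroblasts, 11.01, 11.09 and 11.05 in TSKM-3D cells and 12.06, 12.35 and 12.27 in iPS cells. The fibroblast arrays lay within 0.01 of each other and the groups did not overlap. The first step was 0.44 ± 0.08, or 1.35-fold (limma adjusted p = 0.00116), and the second 1.18 ± 0.08, or 2.26-fold (adjusted p = 2.79e-07), a call that was lost when tested against 2-fold (adjusted p = 0.262). Over the whole course Trim28 was 3.06-fold higher (1.61 ± 0.08; adjusted p = 1.14e-08). The steps differed by 0.74 ± 0.15 (adjusted p = 0.00135), under the 2-fold line. Nearest in profile were Pcnt (0.08), Sh2d4b (0.09) and Slc5a6 (0.09).

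**Figure D3:**
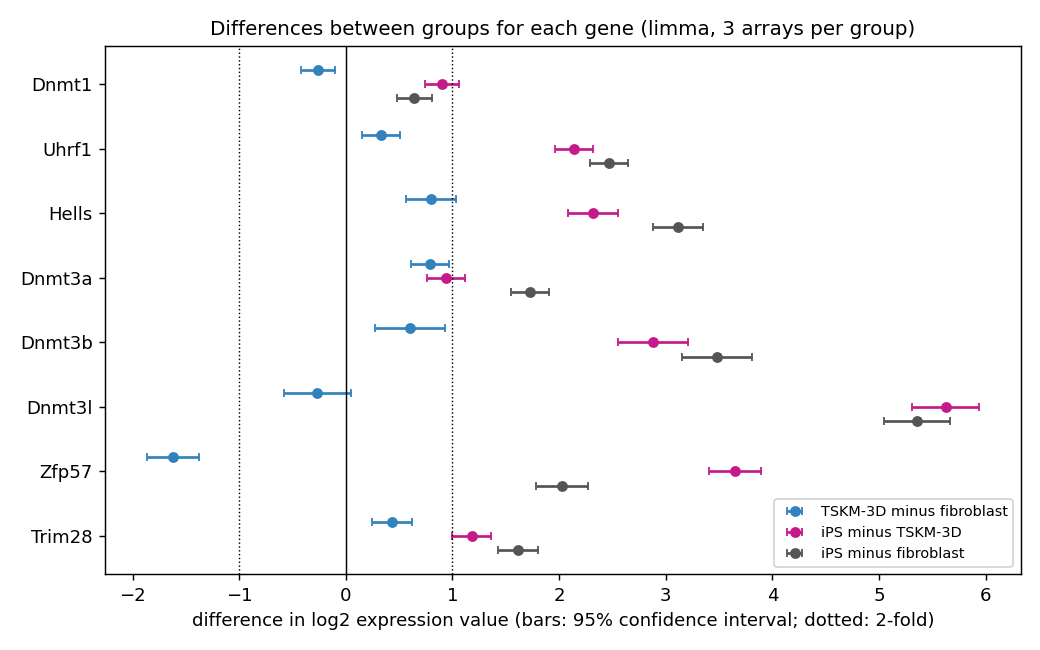
Differences in log2 value between groups for each of the 8 genes, with 95% confidence intervals (limma, 3 arrays per group) and dotted lines at 2-fold. Zfp57 is the only gene past 2-fold at the first step (-1.62), and Dnmt3l, at 5.62 and 5.36, lies furthest right in both iPS comparisons.

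Partners and antagonists of the maintenance proteins moved in both directions. Of 12 measured, 1 was higher and 0 lower at the first step, 2 higher and 1 lower at the second, and 7 higher and 2 lower over the whole course, with medians of 0.25, 0.54 and 1.02. Over all genes 3.25% were higher and 7.58% lower at the first step, and 6.48% and 8.57% at the second. Over the whole course 7.63% of all genes were higher and 13.8% lower. The count of 7 rests on genes near 2-fold, since with array medians set equal it was 2. Under that setting the second step had 2 higher and 3 lower. Cdca7, which activates HELLS, read 8.55 to 8.75 in fibroblasts, 9.04 to 9.08 in TSKM-3D cells and 10.47 to 10.70 in iPS cells, a second step of 1.54 ± 0.09 (limma adjusted p = 3.17e-08). Its relative Cdca7l parted from it only at the second step. Both were higher at the first step, Cdca7l by 1.04 (limma adjusted p = 9.05e-07; 0.99 with array medians set equal). At the second step Cdca7l stood at -0.99 (limma adjusted p = 9.28e-07). The DNA ligase gene Lig1, whose product also recruits UHRF1 to replicated DNA, rose by 2.40 at the second step, and Setd7, a lysine methyltransferase known to mark DNMT1 for loss, fell by 1.91 there. Uhrf2, the paralogue of Uhrf1, was lower over the whole course with a difference of -1.47, while Uhrf1 was higher by 2.47 (limma adjusted p = 8.59e-09 and 2.75e-10). The replication clamp gene Pcna was 1.01 higher over the whole course (0.84 with array medians set equal). Dppa3, whose product keeps UHRF1 off chromatin, read 4.99 to 5.33, 5.57 to 5.73 and 5.90 to 6.42, dim in all 3 groups, and was 1.06 ± 0.13 higher in iPS cells than in fibroblasts (limma adjusted p = 2.4e-05).

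Among regulators of where DNMT3 enzymes act, Prdm14 and Kdm2b were higher at the second step. Of 7, which write or erase the histone marks these enzymes read or repress their genes, 0 were called at the first step. By the limma adjusted p alone 1 was higher and 2 lower there, where 44.6% of all genes passed. At the second step 2 were called higher and 0 lower, where 6.48% of all genes were higher. Prdm14, a repressor of de novo methyltransferase genes in embryonic stem cells, read 5.20 to 5.36, 5.43 to 5.77 and 8.20 to 8.44, and rose by 2.73 ± 0.10 at the second step (limma adjusted p = 1.43e-09), on the same arrays as Dnmt3b and Dnmt3l. The demethylase gene Kdm2b rose by 1.53 there. The histone methyltransferase gene Nsd3 fell by 1.38 over the whole course, where the list had 2 higher and 1 lower and 21.5% of all genes were called. The medians were -0.01, 0.38 and 0.02.

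TRIM28 partners and heterochromatin genes followed Trim28 in part. Of 17 measured, 0 were higher and 2 lower at the first step (2 higher and 1 lower after quantile normalization), 5 higher and 0 lower at the second, and 4 higher and 0 lower over the whole course, with medians of -0.02, 0.65 and 0.63. Over all genes 3.25% were higher and 7.58% lower at the first step, 6.48% and 8.57% at the second, and 7.63% and 13.8% over the whole course. Cbx5, which encodes a heterochromatin protein, fell by 1.33 at the first step, and Trim33 by 1.07 (a difference of -0.94, inside 2-fold, after quantile normalization). At the second step the remodeller gene Smarcad1 rose by 1.60, the silencing gene Tasor by 1.53, the histone chaperone gene Daxx by 1.27 and the heterochromatin protein gene Cbx1 by 1.12 (limma adjusted p at most 8.14e-07). Setdb1, the histone methyltransferase recruited by TRIM28, read 8.62 to 8.81, 8.42 to 8.64 and 9.55 to 9.59, a second step of 1.03 ± 0.08 (limma adjusted p = 7.64e-07; 0.91 with array medians set equal). Zfp445, a second imprint-binding zinc finger gene, was 1.00 higher over the whole course (0.83 with array medians set equal). Most of this lay in the first step, at 0.92, against 0.08 at the second.

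**Figure D4:**
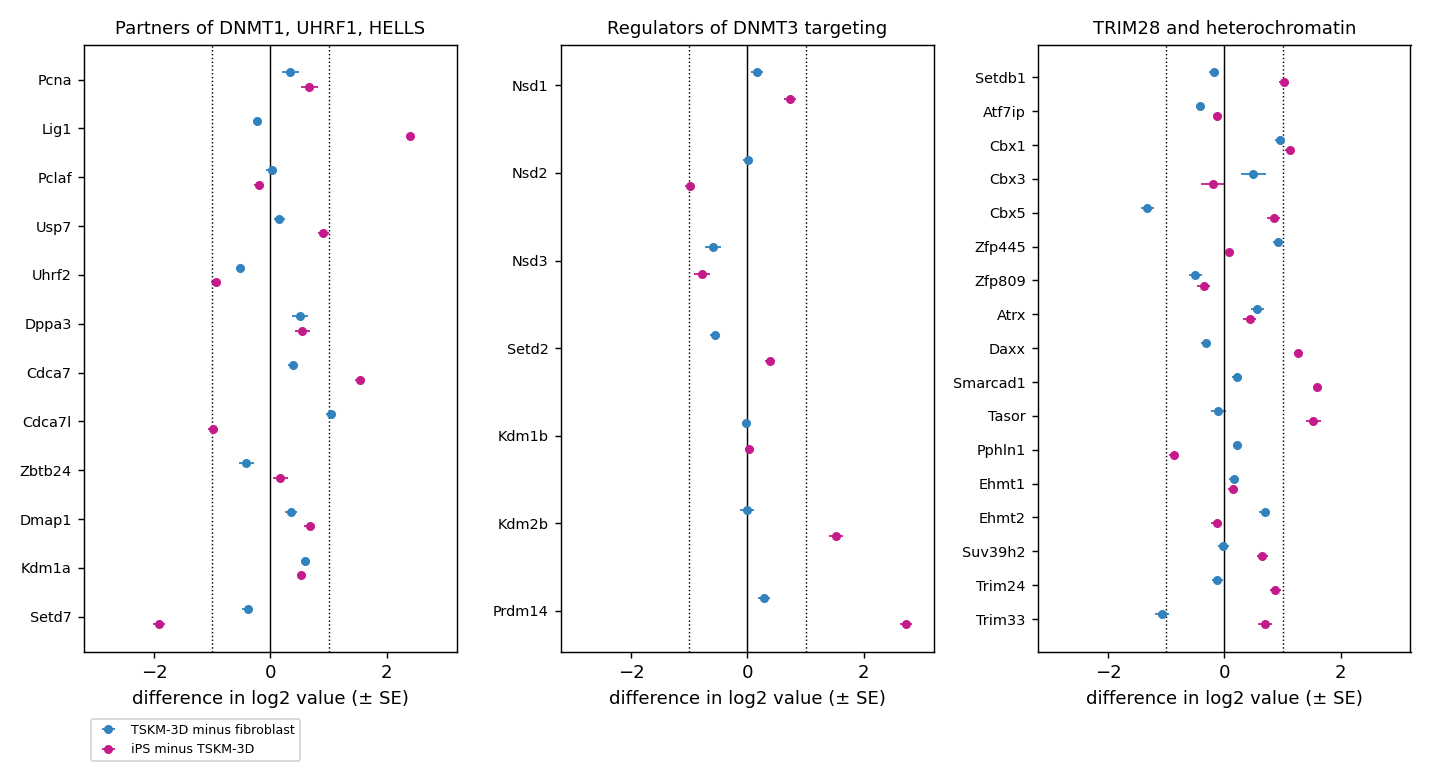
Differences in log2 value (± SE, 3 arrays per group) for partners of the maintenance proteins, regulators of DNMT3 targeting, and TRIM28 and heterochromatin genes, at the first step (blue) and the second (pink), with dotted lines at 2-fold. Most first-step values lie inside 2-fold, and Prdm14 (2.73) and Lig1 (2.40) have the highest second-step values.

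Readers of methylation and genes of methyl group supply and recycling were read next. Of 8 methyl-CpG binding genes 0 were called at the first step, where none reached 2-fold. By the limma adjusted p alone 4 were lower and 0 higher there, a step at which 44.6% of all genes passed. At the second, Mbd4, which encodes a repair glycosylase, rose by 1.56, and the repressor genes Mbd2 and Zbtb33 fell by 1.39 and 1.27 (limma adjusted p at most 3.02e-06). The medians were -0.26 and -0.27, and -0.79 over the whole course, where Zbtb38 was also lower. Of 6 measured genes of S-adenosylmethionine supply and recycling 0 were called at the first step. By the limma adjusted p alone 3 were higher and 1 lower there. Mat2a and Ahcy, also listed, had no row of their symbol alone and were not read. Ahcyl1 fell by 1.27 at the second, and over the whole course Mat2b, 1.40 higher, was the 1 gene called higher (3 were after quantile normalization). Their medians were 0.29, 0.35 and 0.61.

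The oxidases that oppose these enzymes split in the same arrays. Tet1 read 8.05 to 8.18, 6.92 to 7.03 and 10.52 to 10.58, and Tet2 6.53 to 6.69, 6.97 to 7.34 and 9.08 to 9.26, whereas Tet3 went down, from 7.81 to 8.12 through 7.206 to 7.502 to 6.06 to 6.59. The second steps were 3.57, 2.05 and -1.07 (limma adjusted p at most 4.87e-05), and array rows do not separate an introduced Tet1 copy from the cell's own.

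Genes known to be kept silent by promoter methylation in somatic cells were read as well. Of 14 germline genes 0 were called at the first step. By the limma adjusted p alone 1 was higher and 0 lower there, where 44.6% of all genes passed. At the second step 7 were called higher and 0 lower, against 6.48% and 8.57% of all genes, with a median of 0.93. The 7 became 6 after quantile normalization and also with array medians set equal. Tex19.1, a germline and placental gene, read 5.35 to 5.46, 5.41 to 5.53 and 8.17 to 8.74, and the RNA-binding protein gene Dazl 4.02 to 4.35, 4.14 to 4.26 and 6.55 to 6.65. Sycp3, of the meiotic chromosome axis, and the helicase gene Ddx4 rose by 1.73 and 1.68 (limma adjusted p at most 5.07e-06). The first 2 groups read low for Tex19.1, Dazl, Sycp3 and Ddx4, below their array medians. Sycp3 stayed below the array medians of 6.20 to 6.23 on the iPS arrays too, at 5.40 to 5.71.

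Imprinted genes, some of them at imprints known to need ZFP57 and TRIM28, were more often lower than higher on the TSKM-3D arrays. Of 13 measured, 7 were lower and 0 higher at the first step, against 7.58% and 3.25% of all genes. By the limma adjusted p alone 10 were lower and 1 higher there, against 25.3% and 19.2% of all genes. At the second step 5 were higher and 2 lower, against 6.48% and 8.57% of all genes. Over the whole course 5 were lower and 0 higher, against 13.8% and 7.63% of all genes. The medians were -1.01, 0.22 and -0.80. The growth factor gene Igf2 read 11.05 to 11.06, 6.54 to 6.91 and 8.73 to 8.74, and Mest 10.36 to 10.47, 7.003 to 7.354 and 9.42 to 9.52. Dlk1 and Ndn fell by 3.03 and 2.19 at the first step (limma adjusted p at most 4.22e-08). Meg3 rose by 2.09 at the second, where Igf2r fell by 1.85. Of the 10 fibroblast markers 7 were lower and 1 higher at the first step, where the imprinted genes called were lower as well. At the second 4 were lower and 1 higher, while more imprinted genes were higher than lower. The iPS cells alone were grown on feeder fibroblasts. The part of fibroblasts and feeders in the imprinted gene readings was not tested. RNA levels do not show which parental copy was read.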

How the data were processed

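RNA of 9 samples was measured on 1 Affymetrix whole-transcript array each, from Trizol lysates and after biotin labelling, per the labels' protocols. The authors deposited 1 table of expression values for 34760 array rows. The values are on a log2 scale, read from their range since the labels do not name it, and neither software nor normalization is given in the sources used here. Array medians lay between 6.01 and 6.23, and the deposited log2 values were used without further scaling. With 3 arrays per group, their number limits precision.

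Gene names came from the platform annotation, in which 21640 rows carried 1 symbol, 1321 several (not used) and 11799 were unlisted and are unnamed here. Of the 21640, 21553 matched GRCm38.p6 by gene identifier. Each of 19937 genes took its row with the highest mean. Listed pathway genes without a row of their symbol alone were not used. The 3 groups were fitted together in limma 3.58.1 (R 4.3.3; lmFit, contrasts, eBayes), with Benjamini-Hochberg adjustment over all genes. A call needed an adjusted p under 0.05 and 2-fold, and every gene at 2-fold in the 3 comparisons of groups passed the adjusted p, so the fold set those calls. Data for iPS against fibroblasts with 19937 genes were simulated with 100 genes set at a log2 change of 1.5, 100 at 0.5 and 19737 unchanged. Of those at 1.5, 100% were called, and of those at 0.5, 58% passed the adjusted p. In the real comparison 54.6% of all genes passed, far more than were changed in the simulation, so the 58% may not hold for these data. Alternatives were other scalings, rows, filters, variance models, pairings, call rules and left-out arrays.

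Arrays with the same replicate number did not deviate together (correlations of -0.10 to 0.06 over 9 pairs), so the numbers were not used for pairing. The named genes are the 8 members, the 4 largest called changes of each list and comparison, 3 nearest profiles per member, and Dppa3, Prdm14, Cdca7, Setdb1, Pcna and the TET genes. The introduced factors were added later. The members and lists were chosen with earlier results of these data known.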

Additional observations from a re-analysis of the deposited data

How the results depend on the processing

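Under the alternatives tried, none of the 8 genes changed direction in any comparison. Of 632 gene values under an alternative, 617 kept their side of the threshold, 11 gained a call and 4 lost one. The gained calls came with the 2-fold requirement dropped, and Dnmt3a at the second step with the third fibroblast array placed among the TSKM-3D arrays. The lost calls were Trim28, Dnmt1 and Hells tested against 2-fold, and Zfp57 with that placement.

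The number of genes called at the first step was 1, and became 7 with the 2-fold requirement dropped and 0 with the third fibroblast array placed among the TSKM-3D arrays. Leaving out each array in turn, the third fibroblast array included, gave 1 call at the first step, 6 at the second, 7 over the whole course and 6 for the difference between steps each time. In the fit with the replicate number as a block these counts were also 1, 6, 7 and 6, and it changed no call of the 8 genes. Zfp57 at the first step ranged from -1.77 to -1.49 without that placement.

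With array medians set equal, the median difference over all genes was -0.12 in place of 0.05 for iPS against fibroblasts and -0.13 in place of -0.01 for iPS against TSKM-3D, which left the calls of the 8 genes as they were. Signal over background was not measured, which limits the folds of Dnmt3l and Dnmt3b. The filter on dim genes kept all 8.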
